A study of Mus musculus with 8 samples.

Results

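The 9 genes described here are the enzymes that make fatty acids in the liver cell and the factors that control them: Fasn, Acaca, Acly, Scd1, Me1, Srebf1, Mlxipl, Pnpla3 and Thrsp. They were chosen by gene name, and every probe carrying one of these names was taken, which gave 17 probes of the 55657 probes used and 9 of 34768 genes and other features on the array. All 9 genes are shown with all their probes, and the brightest probe of a gene stands for it in the tests. Of the 9 members, 8 were measured well above background on all 8 arrays. The ninth, Pnpla3, was not well above background on most arrays and entered no test.

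The study measured RNA from the livers of male mice after 5 weeks of fibrosis induction with 1 of 2 liver toxicants, TAA (in this field the usual short name of thioacetamide) or CCl4 (carbon tetrachloride), followed by 2 weeks or 1 week of observation with an injection every 3 days of miR-29a or of a negative control nucleotide (NC). The 8 combinations of toxicant, observation time and injection had 1 single-colour array each: 4 with miR-29a (TAA and CCl4, each at 2 weeks and at 1 week) and their 4 NC partners. All groups share the 5-week induction, so no array stands for an uninjured or uninjected liver, and it is not stated whether 1 animal or a pool gave each sample, nor what chemical form the miR-29a had, the strain, the age, or the hour of sampling or feeding. With 1 array per combination, the 4 matched pairs of arrays stand in as the replicates of a difference. No combination was repeated, so p-values measure the spread of these 8 samples around the fit of toxicant, time and injection. That spread includes any dependence of one factor's difference on another that was not fitted.

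Fatty acid synthesis turns surplus carbohydrate into lipid. ACLY splits cytosolic citrate into acetyl-CoA, ACACA carboxylates it to malonyl-CoA, FASN builds palmitate from both with NADPH that malic enzyme ME1 helps to supply, and SCD1 puts a double bond into the product. SREBP-1 (Srebf1), which responds to insulin and to the oxysterol receptor LXR, and ChREBP (Mlxipl), which responds to glucose metabolites, switch these genes on after feeding, and THRSP (Spot 14) is a lipogenic protein that follows the same signals and thyroid hormone. PNPLA3 is a lipid droplet hydrolase whose transcript follows SREBP-1c and ChREBP.

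The miRNA that the labels name and 4 promoters are shown first, since the genes' levels are set beside the injected oligonucleotide (miR-29a or NC) and since Thrsp, Srebf1 and Fasn went up and down together over the arrays. The promoters were picked after the values had been seen. The mature mouse miR-29a-3p of RefSeq (GRCm38.p6, chr6:31062673-31062694, minus strand) has 22 bases, with the seed, bases 2 to 8, in capitals.
mmu-miR-29a-3p: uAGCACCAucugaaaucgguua
The promoter windows are the 250 bases before a RefSeq start in the same build, on the strand of the gene: Thrsp at chr7:97417551-97417800 (minus strand), Srebf1 at chr11:60210472-60210721 (minus strand, the 1 of 3 Srebf1 windows with the most matches), Fasn at chr11:120824548-120824797 (minus strand) and Mlxipl at chr5:135089640-135089889 (plus strand). Capitals mark matches, on either strand, to the CCAAT box (CCAAT), the E-box (CACGTG), a sterol regulatory element (TCACNCCAC) or the GC box (GGGCGG), and matches may overlap or touch.
Thrsp: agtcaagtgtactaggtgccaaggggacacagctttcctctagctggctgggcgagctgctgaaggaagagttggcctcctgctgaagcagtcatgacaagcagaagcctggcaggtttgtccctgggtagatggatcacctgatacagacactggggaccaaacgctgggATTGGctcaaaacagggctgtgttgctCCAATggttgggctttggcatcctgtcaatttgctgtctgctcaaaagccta
Srebf1: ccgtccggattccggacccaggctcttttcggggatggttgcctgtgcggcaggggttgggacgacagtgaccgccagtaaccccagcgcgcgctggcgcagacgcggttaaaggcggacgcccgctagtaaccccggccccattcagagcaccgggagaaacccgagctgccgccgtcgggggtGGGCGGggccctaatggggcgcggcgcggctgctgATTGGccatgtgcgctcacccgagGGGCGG
Fasn: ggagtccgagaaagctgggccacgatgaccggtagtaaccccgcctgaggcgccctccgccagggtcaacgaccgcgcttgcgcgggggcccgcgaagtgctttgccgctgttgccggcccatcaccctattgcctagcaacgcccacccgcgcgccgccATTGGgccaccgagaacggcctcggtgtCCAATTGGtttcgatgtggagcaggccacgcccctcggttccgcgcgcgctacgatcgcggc
Mlxipl: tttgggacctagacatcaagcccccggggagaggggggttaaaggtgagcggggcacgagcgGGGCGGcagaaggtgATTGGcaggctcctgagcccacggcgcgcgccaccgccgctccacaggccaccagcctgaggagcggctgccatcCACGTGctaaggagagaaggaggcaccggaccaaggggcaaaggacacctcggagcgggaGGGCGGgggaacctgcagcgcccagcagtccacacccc
RefSeq windows were found for 8 of the 9 members, 12 windows in all. The CCAAT box was in 7 of these 12 windows and in 33.8% of the 32851 windows of all genes. The GC box was in 6 of 12, against 32.7% of all. The E-box was in 1 of 12, the Mlxipl window shown, against 6.02%, and the sterol element was in 1 of 12, the other Mlxipl window, against 1.05%. Thrsp carried a CCAAT box at 52 to 48 and at 79 to 75 bases before the start, and Fasn carried 3, the nearest at 59 to 55 bases before it. These matches describe the letters of the windows.

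Levels are log2 processed signals minus the 75th percentile of each array, so 0 is the 75th percentile of that array and a difference of 1 is a doubling. The 8 arrays lay on 1 slide and were scanned on 1 day, with the TAA arrays in row 2 and the CCl4 arrays in row 1, so agent (the toxicant) and slide row cannot be told apart. The 2-week arrays lay in columns 3 and 4 and the 1-week arrays in columns 1 and 2, with miR-29a in columns 2 and 4 and NC in columns 1 and 3, so week and oligonucleotide cannot be told apart from slide column. Each array had 59305 non-control spots, 43.9% to 48.4% of them well above background and 0 saturated. The TAA 1-week miR-29a array had the lowest share and the lowest 75th percentile of signal, 136 against 173 to 219 on the others. Its mean correlation with the other arrays was 0.970, and that of TAA 1-week NC was 0.965, against 0.975 to 0.983 for the rest. Hepatocyte markers were present on every array: all 10 listed genes were measured, and their summed linear level ranged from 6169 to 7749 times the 75th percentile. The TAA 1-week NC array stood apart in inflammation genes. The summed level of 5 measured neutrophil markers (8 listed, with Mpo, Cxcr2 and Ngp not measured) was 314 there and 7.73 to 11.3 on the other 7 arrays, and that of 10 Kupffer cell and macrophage markers was 365 there and 51.0 to 91.2 elsewhere. In whole liver, fewer cells of a type and less RNA per cell cannot be told apart.

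Srebf1 encodes the precursor of SREBP-1a and SREBP-1c. Its probe lies at chr11:60012664-60012723 (minus strand, mm9, as the array's design file gives it). On the miR-29a arrays its level was 2.86 in TAA 2 weeks, 3.98 in TAA 1 week, 2.73 in CCl4 2 weeks and 2.45 in CCl4 1 week, against 1.96, 2.32, 2.26 and 2.19 on the NC arrays of the same 4 combinations. Every miR-29a array lay above every NC array, and the TAA 1-week miR-29a array lay 1.12 above the next, the 1 step between neighbouring levels that exceeded the residual SD of 0.42. The miR-29a minus NC difference was 0.82 ± 0.30 (SE), or 1.77-fold, above 0 in 4 of 4 pairs. Across the array 10.3% of features were above 0 in all 4 pairs, and 1.06% had miR-29a arrays all above NC arrays. The limma adjusted p was 0.9998, so the difference was not called, which took an adjusted p under 0.05. It was 0.54 without the TAA 1-week pair (limma adjusted p = 0.764), with a pair difference of 1.66 in TAA 1 week, 0.90 in TAA 2 weeks, 0.47 in CCl4 2 weeks and 0.26 in CCl4 1 week.

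Thrsp had the widest range of the members, 2.32, and its SD over the arrays exceeded that of 90.8% of features. Its probe lies at chr7:104561649-104561708 (minus strand, mm9). The levels were 6.87 in TAA 2 weeks, 7.82 in TAA 1 week, 6.88 in CCl4 2 weeks and 6.40 in CCl4 1 week on the miR-29a arrays, against 5.50, 6.36, 5.55 and 6.55 on the NC arrays. The 3 highest arrays were miR-29a arrays and the 2 lowest were the 2-week NC arrays, while in CCl4 1 week the miR-29a array lay below the NC array. The difference of miR-29a minus NC was 1.00 ± 0.31, or 2.00-fold, above 0 in 3 of 4 pairs (limma adjusted p = 0.9998). The 3 pairs above 0 were alike, at 1.46 in TAA 1 week, 1.37 in TAA 2 weeks and 1.33 in CCl4 2 weeks, against -0.15 in CCl4 1 week. Without the TAA 1-week pair the difference was 0.85 (limma adjusted p = 0.821).

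Mlxipl, the gene of ChREBP, is read by 2 probes, and the brighter lies at chr5:135613705-135613764 (plus strand, mm9). Its levels were 7.15 in TAA 2 weeks, 7.72 in TAA 1 week, 7.03 in CCl4 2 weeks and 6.17 in CCl4 1 week with miR-29a, against 6.85, 6.11, 7.10 and 6.29 with NC. The 1-week arrays held the 3 lowest levels and also the highest, TAA 1-week miR-29a. The difference of miR-29a minus NC was 0.43 ± 0.33 and above 0 in 2 of 4 pairs, of which TAA 1 week gave 1.61 and the others lay between -0.13 and 0.30. The second Mlxipl probe gave 0.50 in TAA 1 week: its level on the TAA 1-week NC array was 2.33, its second highest, where the brighter probe was lowest, and the Pearson correlation of both probes over the 8 arrays was 0.67. Without the TAA 1-week pair the mean of the brighter probe was 0.04.

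**Figure D1:**
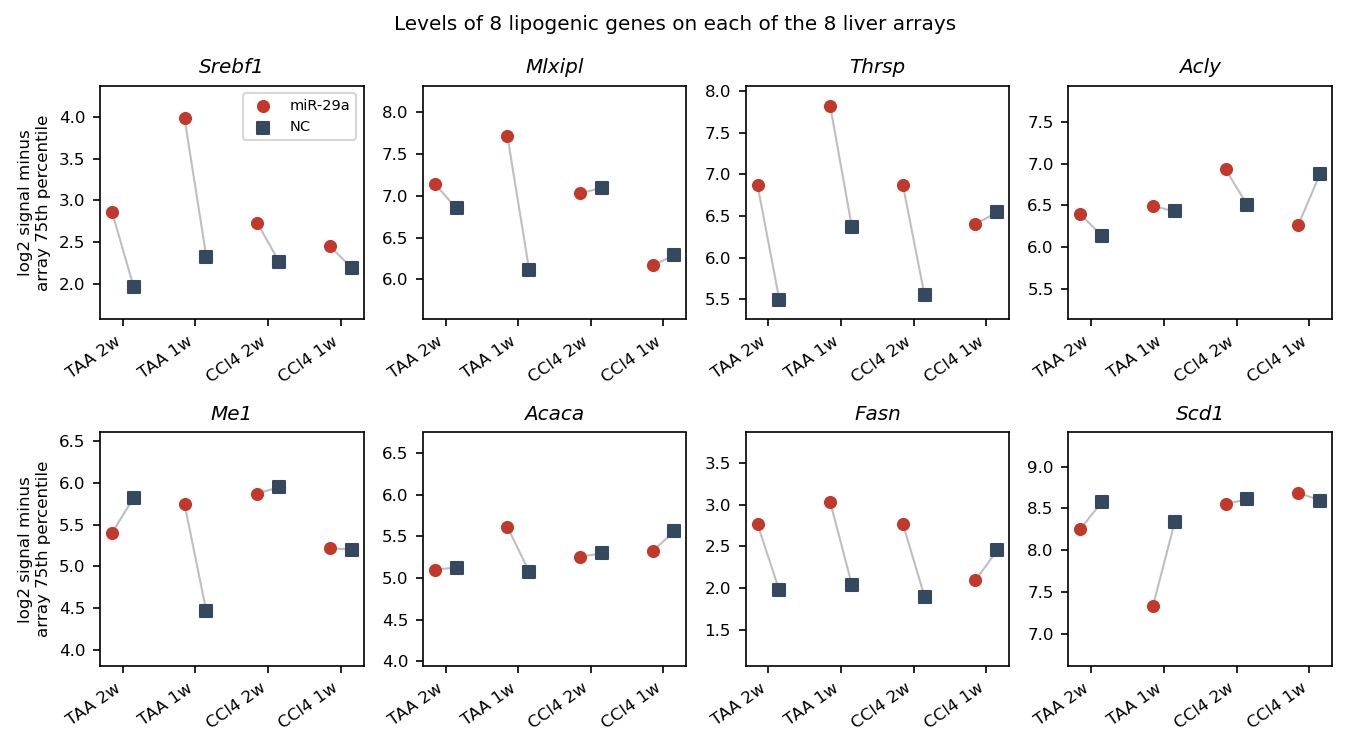
Level of each of the 8 measured genes on every array (log2 signal minus the array's 75th percentile, the same span of 2.8 log2 units in each panel), with 1 point per array and a line joining the miR-29a array (circle, left) to its matched NC array (square, right). Srebf1 lies higher with miR-29a in all 4 pairs, and Thrsp, Fasn and Acly in 3 (Acly with a mean difference of 0.04). The TAA 1-week pair is the widest for every gene but Acly.

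Acly, which makes cytosolic acetyl-CoA, had levels of 6.40 in TAA 2 weeks, 6.49 in TAA 1 week, 6.93 in CCl4 2 weeks and 6.27 in CCl4 1 week with miR-29a, against 6.13, 6.43, 6.50 and 6.88 with NC. The levels lay within 0.80 of each other, with no separation by oligonucleotide or week. The miR-29a minus NC difference was 0.04 ± 0.20. Its 2 probes went different ways, with a correlation of 0.17 over the arrays and a TAA minus CCl4 difference of -0.28 for the brighter and 0.64 for the other. The brighter probe lies at chr11:100337674-100337733 and the other at chr11:100365518-100365577 (minus strand, mm9).

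Me1, cytosolic malic enzyme, was at 5.40 in TAA 2 weeks, 5.75 in TAA 1 week, 5.87 in CCl4 2 weeks and 5.22 in CCl4 1 week with miR-29a, against 5.82, 4.46, 5.95 and 5.20 with NC. The TAA 1-week NC array lay 0.74 below the next, the 1 step above the residual SD of 0.39, and all 3 probes were lowest there, the other probes correlating with the one used at 0.99 and 0.98 over the 8 arrays. The 2-week arrays averaged 5.76 and the 1-week arrays 5.16, a difference of 0.60 ± 0.28 that was above 0 in 3 of 4 pairs (limma adjusted p = 0.872). Without the TAA 1-week NC array it was 0.36.

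Acaca, which makes malonyl-CoA, was the steadiest member by the probes used, with a range of 0.54 over the arrays and an SD at the 20.9th percentile of all features. The levels were 5.10 in TAA 2 weeks, 5.61 in TAA 1 week, 5.25 in CCl4 2 weeks and 5.32 in CCl4 1 week with miR-29a, against 5.13, 5.08, 5.30 and 5.56 with NC. Its differences were 0.06 ± 0.15 for miR-29a minus NC, -0.20 ± 0.15 for 2 weeks minus 1 week and -0.13 ± 0.15 for TAA minus CCl4. It had 4 probes. A probe 1 base away from the one used correlated with it at 0.99, and the others at 0.65 and 0.46, the last well above background on 5 of 8 arrays. The probe at 0.65, well above background on 8 arrays, ran from -0.74 to 0.17. Its TAA minus CCl4 difference was 0.16, opposite in sign to that of the probe used.

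Fasn, fatty acid synthase, is read by 1 probe, at chr11:120667666-120667725 (minus strand, mm9). Its levels were 2.76 in TAA 2 weeks, 3.03 in TAA 1 week, 2.77 in CCl4 2 weeks and 2.09 in CCl4 1 week with miR-29a, against 1.97, 2.04, 1.90 and 2.45 with NC. The 3 highest arrays were the same miR-29a arrays as for Thrsp, and CCl4 1 week again ran the other way. The miR-29a minus NC difference was 0.58 ± 0.24, or 1.49-fold, above 0 in 3 of 4 pairs (limma adjusted p = 0.9998). The pair differences were 1.00 in TAA 1 week, 0.79 in TAA 2 weeks, 0.88 in CCl4 2 weeks and -0.36 in CCl4 1 week.

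Scd1, the stearoyl-CoA desaturase of liver, is read by 1 probe at chr19:44469387-44469446 (minus strand, mm9). It was at 8.26 in TAA 2 weeks, 7.33 in TAA 1 week, 8.55 in CCl4 2 weeks and 8.69 in CCl4 1 week with miR-29a, against 8.58, 8.34, 8.61 and 8.60 with NC. The other 7 arrays lay within 0.43 of each other, and TAA 1-week miR-29a lay 0.92 below the lowest of them. On that same array Srebf1, Mlxipl, Thrsp, Fasn and Acaca had their highest levels. The difference of TAA minus CCl4 was -0.48 ± 0.23, below 0 in 4 of 4 pairs, as were 27.1% of all features (limma adjusted p = 0.212). Without the TAA 1-week miR-29a array it was -0.23, and without the whole TAA 1-week pair -0.16.

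Pnpla3 was not well above background on 6 of 8 arrays. Its brighter probe passed only on the TAA 2-week and TAA 1-week miR-29a arrays, at levels of -2.40 and -2.12, and read -3.31 in CCl4 2 weeks and -5.40 in CCl4 1 week with miR-29a, against -4.77, -2.64, -5.58 and -4.58 with NC. The mean reading was -2.98 on TAA arrays (2 of 4 measured) and -4.72 on CCl4 arrays (0 of 4), and -3.31 on miR-29a arrays (2 of 4) and -4.39 on NC arrays (0 of 4). Most of these readings were not well above background, so no fold is given. The second probe was not well above background on any array and read between -5.29 and -3.08. No test was made.

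The comparison of miR-29a with NC asks how the injected miRNA altered the fibrotic liver. Adjusted over 18534 features, 0 of the 8 measured members were called, beside 0 features called on the whole array (background 0% higher and 0% lower). At an unadjusted limma p under 0.05, 2 members, Thrsp and Srebf1, were higher, beside 1.66% of features higher and 1.17% lower. The difference was above 0 for 7 of 8 members (Acly, at 0.04, was just below 0 with median or quantile scaling or normexp correction) and for 57.1% of all features. The median over the 8 members was 0.31, against 0.03 for all features. In the 1-array pairs the members' median was 0.28 in TAA 2 weeks, 1.14 in TAA 1 week, 0.19 in CCl4 2 weeks and -0.14 in CCl4 1 week. The medians of all features were -0.01, 0.13, 0.002 and 0.02 in the same order, with 62.6% of features above 0 in TAA 1 week. Over 2-fold higher with miR-29a were 4 members in the TAA 1-week pair (Srebf1, Mlxipl, Thrsp and Me1, background 3.96%), 1 in TAA 2 weeks (Thrsp, background 1.55%) and 1 in CCl4 2 weeks (Thrsp, background 0.966%). None was over 2-fold higher in CCl4 1 week (background 1.04%), and Scd1 was over 2-fold lower in TAA 1 week (background 5.87%). These pairs have no replicate.

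**Figure D2:**
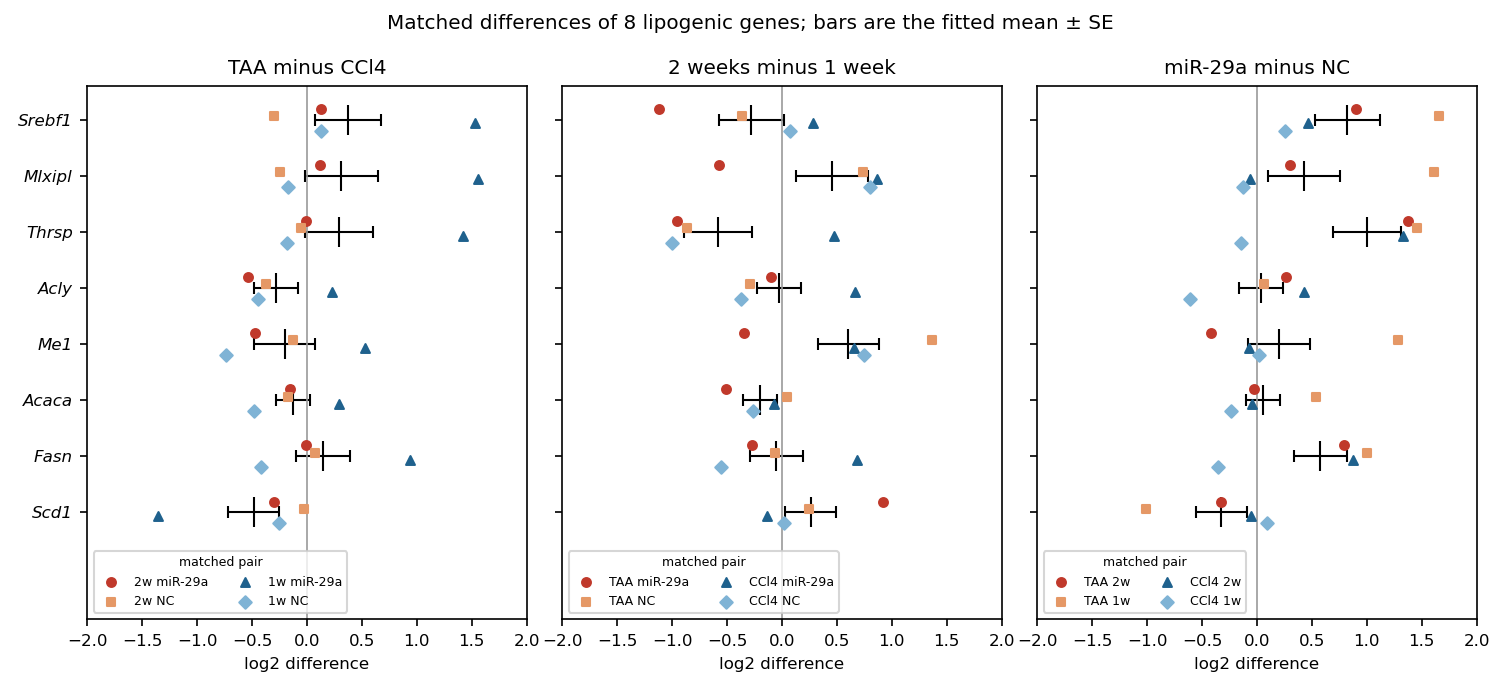
Matched log2 differences of the 8 measured genes for TAA minus CCl4, 2 weeks minus 1 week and miR-29a minus NC. Coloured points are the 4 matched pairs and black bars the limma mean ± SE. For miR-29a minus NC, Thrsp (1.00), Srebf1 (0.82) and Fasn (0.58) have the largest means, and the CCl4 1-week pair is the lowest for every gene but Scd1 and Me1.

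The comparison of TAA with CCl4 sets one toxicant against the other. Of the 8 measured members 0 were called, as were 0% of features in either direction, and at an unadjusted limma p under 0.05 the members numbered 0 beside 28.7% of features. The differences were 0.37 ± 0.30 for Srebf1, 0.31 ± 0.33 for Mlxipl, 0.29 ± 0.31 for Thrsp and 0.15 ± 0.24 for Fasn, against -0.48 ± 0.23 for Scd1, -0.28 ± 0.20 for Acly, -0.20 ± 0.28 for Me1 and -0.13 ± 0.15 for Acaca, with the first 4 below 0 when arrays were scaled to their medians, Acly, Me1 and Acaca above 0 after quantile normalization, and Acly above 0 as the mean of its probes. The median of all features was -0.13 with the 75th percentile and -0.52 with the median as the scale. Both scalings subtract 1 constant per array, so values relative to that median are the same by construction. They were 0.50 for Srebf1, 0.44 for Mlxipl, 0.42 for Thrsp, 0.28 for Fasn and -0.36 for Scd1. After quantile normalization they were 0.61, 0.65, 0.63, 0.37 and -0.16 in the same order. Within the 4 pairs the members' median was -0.08 in 2-week miR-29a, -0.15 in 2-week NC, 0.73 in 1-week miR-29a and -0.34 in 1-week NC. The medians of all features were -0.09, -0.08, -0.11 and -0.21 in the same order. The 3 members over 2-fold higher in TAA were all in the 1-week miR-29a pair (Mlxipl 2.94-fold, Srebf1 2.89-fold and Thrsp 2.68-fold, background 10.7%), as was Scd1, 2.56-fold lower (background 11.2%). In the other pairs 0 members passed 2-fold, with backgrounds of 2.67% higher and 1.32% lower in 2-week miR-29a, 2.02% and 1.24% in 2-week NC, and 11.1% and 11.9% in 1-week NC.

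The comparison of 2 weeks with 1 week follows the liver after the end of the induction. No member of 8 was called, and 0% of features were called in either direction. At an unadjusted limma p under 0.05 there were 0 members beside 5.19% of features. The differences were 0.60 ± 0.28 for Me1, 0.46 ± 0.33 for Mlxipl and 0.26 ± 0.23 for Scd1, against -0.59 ± 0.31 for Thrsp, -0.28 ± 0.30 for Srebf1, -0.20 ± 0.15 for Acaca, -0.05 ± 0.24 for Fasn and -0.03 ± 0.20 for Acly, with adjusted p-values from 0.872 to 0.988. For Thrsp, 2 weeks lay below 1 week in the TAA miR-29a, TAA NC and CCl4 NC pairs by about 2-fold each (1.94, 1.82 and 2.00), and above it in CCl4 miR-29a by 1.39-fold. For Mlxipl, 2 weeks lay above 1 week in TAA NC (1.66-fold), CCl4 miR-29a (1.82-fold) and CCl4 NC (1.75-fold), and below it in TAA miR-29a (1.49-fold). Over 2-fold were Me1, 2.57-fold higher at 2 weeks in TAA NC (background 6.29%), and Srebf1, 2.17-fold lower in TAA miR-29a (background 3.16%).

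Whether one factor's difference depended on another was tested with an interaction term for each pair of factors. Of agent and week, 5.52% of all features were called higher and 4.29% lower, and 0 of the 8 members, whose adjusted p-values ran from 0.272 for Srebf1 (term -0.92 ± 0.49) to 0.903 for Acaca (term -0.07 ± 0.30). Without any 1 of the 6 arrays other than the TAA 1-week pair, 0 features were called for this term. Without the TAA 1-week NC array, which leaves 1 array in TAA 1 week, the term of Mlxipl was -1.54, against -0.76 with all arrays. How many of all features were called in such fits is given with the alternatives below. For oligonucleotide and agent, and for oligonucleotide and week, 0 features and 0 members were called (0%), and 1.39% and 1.92% of features had an unadjusted limma p under 0.05, with 0 members among them in both. The excess of the miR-29a minus NC difference in TAA over that in CCl4 was 0.92 ± 0.52 for Srebf1, 1.05 ± 0.57 for Mlxipl and 0.82 ± 0.58 for Thrsp, and did not pass the test (limma adjusted p = 1.00 for each).

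Over the 8 arrays the levels of Fasn and Thrsp had a Pearson correlation of 0.91, Srebf1 and Thrsp of 0.89 and Fasn and Srebf1 of 0.82. Leaving out the 2 arrays farthest from the median of the first-named gene, these were 0.83, 0.76 and 0.71, and Spearman's rho over all 8 was 0.98, 0.83 and 0.79. Me1 and Mlxipl correlated at 0.74, and at 0.69 without such arrays. Scd1 correlated with Srebf1 at -0.91, but at -0.01 without its 2 farthest arrays, both TAA miR-29a, so this rests on them. The correlations of Acly and Acaca with other members were at most 0.51 in size. The genes share arrays and scaling, and 28 pairs were looked at. The 5 named features with a pattern most like the mean of the members, of 13498 ranked, were Tmem63b (r = 0.968), Sesn2 (0.965), Pgghg (0.953), Msrb1 (0.951) and Ptchd4 (0.949). Their ranges were small: Tmem63b spanned 0.69 and Sesn2 0.54. The single closest features were Mybbp1a for Fasn (0.965), Hipk4 for Srebf1 (0.974), Nhej1 for Mlxipl (0.974), Nabp2 for Thrsp (0.964) and Cep19 for Scd1 (0.992).

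**Figure D3:**
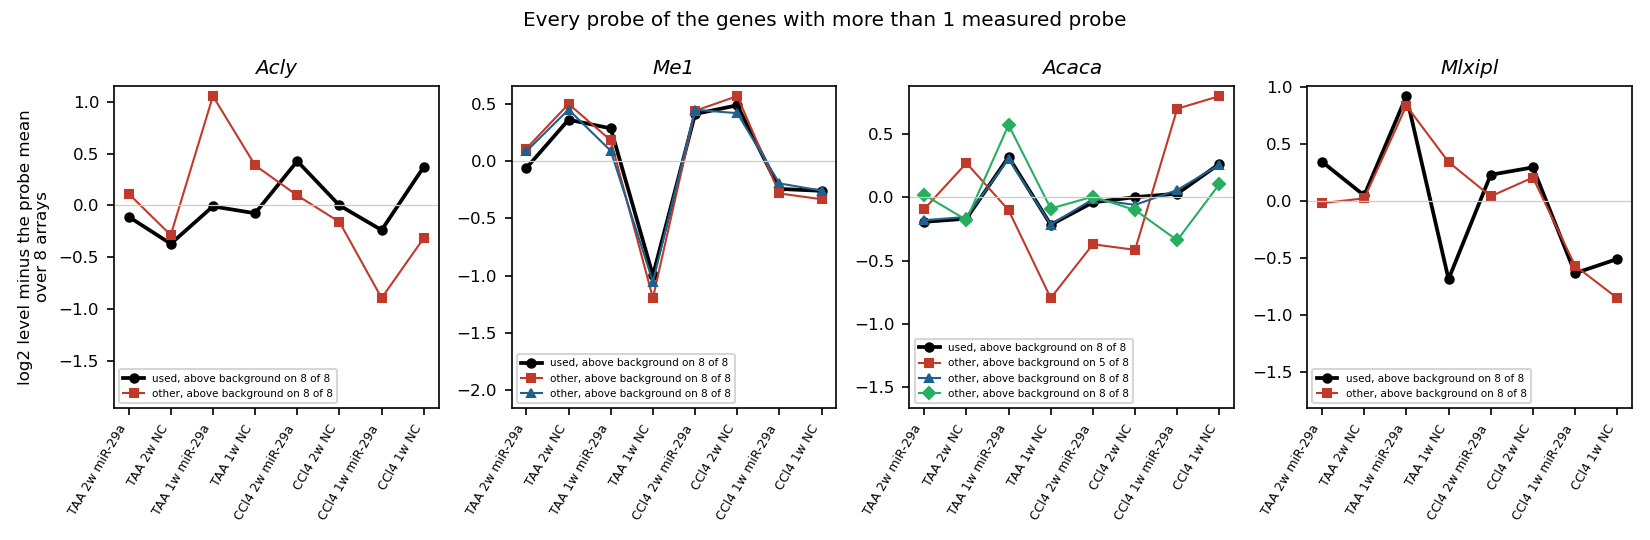
Every probe of Acly, Me1, Acaca and Mlxipl on the 8 arrays, as log2 level minus that probe's own mean (black, the probe used). The 3 Me1 probes overlie each other, 2 of the 4 Acaca probes do, and the Acly probes part on the 1-week arrays of both toxicants and the Mlxipl probes on the TAA 1-week NC array.

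Genes around the pathway were read from lists of related enzymes and regulators. For miR-29a minus NC, each count stands beside 57.1% of all features above 0 and, at an unadjusted limma p under 0.05, 1.66% higher and 1.17% lower. Of 13 measured genes of acyl chain modification and accessory enzymes (14 listed), 7 were above 0 for miR-29a minus NC, 1 of them at an unadjusted limma p under 0.05, and 0 were called. Aacs, which makes acetoacetyl-CoA for lipid synthesis from ketone bodies, differed by 1.06 ± 0.24, above 0 in 4 of 4 pairs. Its levels were 4.40, 5.52, 4.93 and 4.72 with miR-29a (TAA 2 weeks, TAA 1 week, CCl4 2 weeks, CCl4 1 week), against 4.13, 3.99, 3.55 and 3.66 with NC, so the groups did not overlap (background 1.06%). Mid1ip1, a partner of THRSP that helps ACACA to polymerise, differed by 0.56 ± 0.27.

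Of 11 measured genes of glycerolipid assembly, 7 were above 0 with miR-29a, 1 at an unadjusted limma p under 0.05, and 0 were called. Gpam, which puts the first fatty acid on glycerol phosphate, differed by 0.53 ± 0.14. Gpam had 1.85, 1.73, 2.08 and 1.56 with miR-29a, against 1.16, 1.13, 1.37 and 1.45 with NC, again with no overlap. Of 13 genes of carbon supply, 10 were above 0, with 0 called and 0 at an unadjusted limma p under 0.05. Of 7 measured NADPH genes (8 listed), 3 were above 0 and 4 below, with 0 called and 1 lower at an unadjusted limma p under 0.05. G6pdx, the entry enzyme of the pentose phosphate pathway, differed by -0.86 ± 0.26 with miR-29a and by 0.95 ± 0.26 in TAA minus CCl4, and was at 1.71 and 2.10 on the TAA NC arrays of 2 weeks and 1 week.

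Among 27 regulators of lipogenesis, 18 were above 0 for miR-29a minus NC, with a median of 0.05. At an unadjusted limma p under 0.05, 3 were higher and 1 lower, and 0 were called. Bhlhe40, a clock-linked repressor, differed by 0.67 ± 0.26, Trib3 by 0.64 ± 0.44 and Insig1, which holds SREBPs in the endoplasmic reticulum and is itself an SREBP target, by 0.64 ± 0.35. For TAA minus CCl4, 21 of the 27 were below 0, with Trib3 at -1.69 ± 0.44, Usf2 at -0.91 ± 0.20 and Insig2 at -0.79 ± 0.24, with 0 called and 6 lower at an unadjusted limma p under 0.05. Of all features 38.5% were above 0 for TAA minus CCl4, and 19.7% were lower at an unadjusted limma p under 0.05. Of 14 ChREBP-responsive genes (4 of them members), 11 were above 0 with miR-29a, with a median of 0.14 that was 0.98 in the TAA 1-week pair and between -0.09 and 0.00 in the others. Of 9 other LXR-responsive genes, 6 were above 0, with a median of 0.05. Of both lists 0 were called at an adjusted and 0 at an unadjusted limma p under 0.05. The miR-29a medians over all arrays stand beside 0.03 for all features, and the 0.98 beside 0.13 for all features in the TAA 1-week pair.

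Between the toxicants and between the weeks, 0 genes of the lists were called by limma, as were 0% of all features. Scd2, a desaturase better known from brain and developing liver, was at 2.00, 2.44, 1.70 and 4.38 on the TAA arrays (2 weeks miR-29a, 1 week miR-29a, 2 weeks NC, 1 week NC), against 0.06, 0.30, 0.19 and 0.79 on the matched CCl4 arrays. All 4 TAA arrays lay above all CCl4 arrays, as for 5.45% of features, and the difference was 2.30 ± 0.41 (limma adjusted p = 0.130), while that of Scd1 was -0.48. Fads1, the delta-5 desaturase, differed by -0.75 ± 0.25 between TAA and CCl4. Lpin1, a phosphatidate phosphatase that also acts in the nucleus, was 0.85, 1.56, 0.00 and 1.36 on the TAA arrays in the same order, against 1.22, 1.92, 1.05 and 2.40 on the CCl4 arrays, with differences of -0.70 ± 0.21 for TAA minus CCl4 and -1.03 ± 0.21 for 2 weeks minus 1 week. For 2 weeks minus 1 week, Acss2, which makes acetyl-CoA from acetate, differed by 0.50 ± 0.17 and Elovl5, an elongase of polyunsaturated chains, by 0.39 ± 0.15, both above 0 in 4 of 4 pairs (background 6.04%), with adjusted limma p-values of 0.872. For the agent by week term, 3 list genes passed the adjusted p of 0.05 in limma, beside 5.52% of all features higher and 4.29% lower. They were 1 of 13 measured genes of carbon supply, 1 of 27 regulators and 1 of 15 clock genes, with none in the other lists. Without any 1 of the 6 arrays outside the TAA 1-week pair, 0 features passed. The 3 genes are named after their values were seen: Pdha1 (1.26 ± 0.26, adjusted p = 0.0451), Fbxw7 (-0.90 ± 0.17, adjusted p = 0.0375) and the clock gene Nr1d1 (1.85 ± 0.28, adjusted p = 0.0301).

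**Figure D4:**
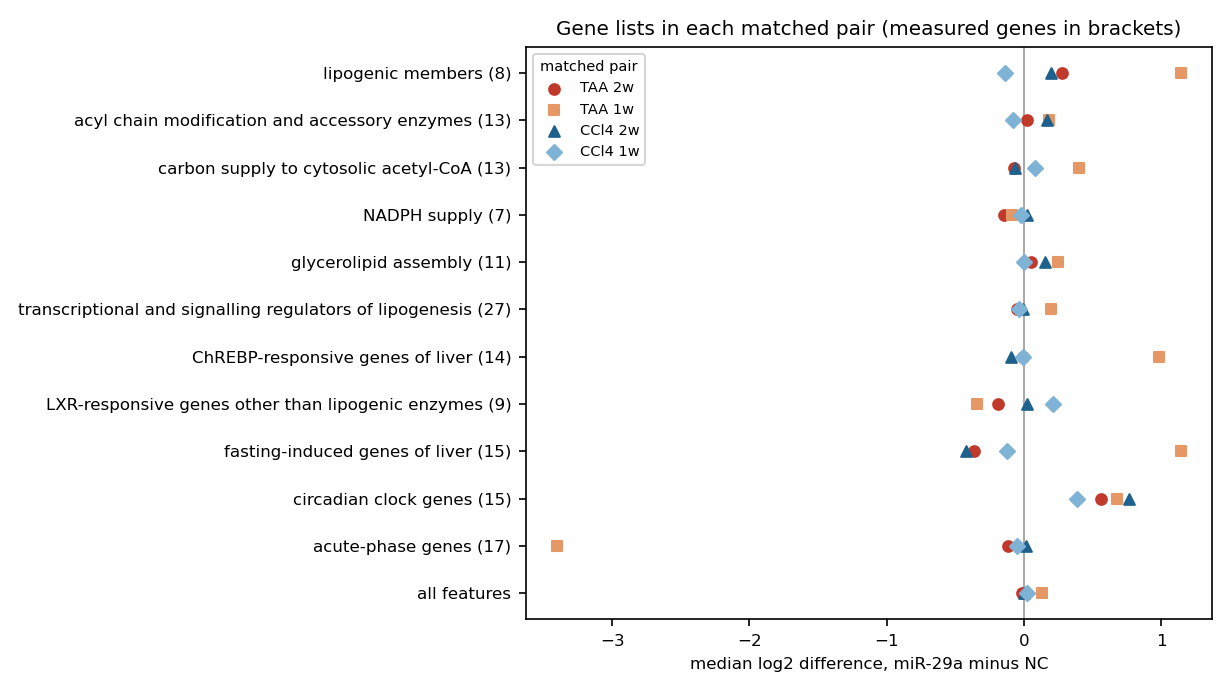
Median log2 difference of miR-29a minus NC for each gene list in each matched pair, with the number of measured genes in brackets and all features at the bottom. The lipogenic genes, the ChREBP-responsive genes and the fasting-induced genes lie near 1 in the TAA 1-week pair (1.14, 0.98 and 1.14), where acute-phase genes lie at -3.40, while the clock genes lie between 0.39 and 0.76 in all 4 pairs.

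Clock, acute-phase and fasting genes were read beside the lipogenic genes because they, too, vary in liver with time of day, injury and feeding. Of 15 measured circadian clock genes (18 listed), 12 were above 0 for miR-29a minus NC, 9 higher and 2 lower at an unadjusted limma p under 0.05, with 0 called. Of all features, 57.1% were above 0, with 1.66% higher and 1.17% lower at that p. The median was 0.69, against 0.03 for all features. Usp2, a rhythmic deubiquitinase, was at 2.50, 4.39, 2.04 and 3.28 with miR-29a (TAA 2 weeks, TAA 1 week, CCl4 2 weeks, CCl4 1 week), against -0.07, 3.40, -0.68 and 1.34 with NC. Its difference was 2.06 ± 0.36 by oligonucleotide and -2.16 ± 0.36 for 2 weeks minus 1 week. Srebf1, Thrsp and Fasn are rhythmic in mouse liver, and the part of clock phase or feeding in their differences was not tested.

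All 17 acute-phase genes were below 0 for miR-29a minus NC, with a median of -0.86 that was -3.40 in TAA 1 week and between -0.12 and 0.01 in the other pairs, with 0 called and 0 at an unadjusted limma p under 0.05. Saa1, a serum amyloid, was at 5.70 on the TAA 1-week miR-29a array and 10.99 on the TAA 1-week NC array, against 4.42 to 5.34 on the other 6. Of 15 fasting-induced genes 6 were above 0, with a median of -0.19 that was 1.14 in TAA 1 week and between -0.42 and -0.12 elsewhere, with 0 called and 0 at an unadjusted limma p under 0.05. The median of all features in the TAA 1-week pair was 0.13. Pdk4, which shuts pyruvate away from acetyl-CoA in fasting, was at 1.16, -0.41, 0.96 and 0.37 with miR-29a, against 2.31, -1.14, 3.13 and 1.82 with NC. The part of inflammation in the lipogenic differences of the TAA 1-week pair was not tested.

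Adipocytes are the other cells that express much of this pathway. Of 10 adipocyte markers 5 were measured, and Adipoq, Plin1, Lep and Retn were well above background on 0 arrays and Cfd on 3. The summed level of the 5 measured (Adrb3, Cidec, Fabp4, Lipe and Car3, some of which liver cells also express) ranged from 469 to 1007 on miR-29a arrays and from 232 to 759 on NC arrays, with both ends in the TAA 1-week pair. The part of these cells in the lipogenic levels was not tested.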

How the data were processed

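RNA of 8 mouse liver samples was hybridised to single-colour (Cy3) Agilent arrays. The authors' scanner files hold, per the file headers, the processed signal intensity of each spot from Agilent Feature Extraction 10.10.1.1. It is background-subtracted and detrended, with no scaling between arrays. The deposited value table holds log2 values that differed from log2 of that intensity by 1 constant per array (within 0.01 for 100% of values), so it was used as an alternative, and its own processing is not given in the sources used here. Here log2 intensity minus the 75th percentile of each array was taken, spots of a probe were averaged, and 24 probes left without a spot after outlier flags were dropped. Features well above background on at least 4 of 8 arrays were kept (18534 of 34768), each by its brightest probe, and limma 3.58.1 in R 4.3.3 was fitted with agent, week and oligonucleotide as additive terms, with interaction terms added 1 at a time and Benjamini-Hochberg adjustment over all features. The number of arrays limits the precision. Probe names came from RefSeq by accession for 27641 probes, by current symbol for 3400 and by older symbol for 321, and from the files for 24295.

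The 9 members, the gene lists and the tests were chosen with earlier results of these data known. All 9 members are named. From each list any gene past an adjusted p of 0.05 and otherwise up to 3 genes with the largest mean difference in each contrast could be named, and the like-pattern genes were the 5 closest to the members' mean and the closest to each member. The fit of miR-29a minus NC was tested on simulated data, with independent normal noise of each gene's residual SD and no dependence between factors. At an adjusted limma p under 0.05 it recovered 39% of simulated log2 changes of 1 and 79.4% of changes of 2. These shares hold for the simulated settings and the number of changes planted, and may differ in the real data. A gene that was not called may therefore still have changed. The alternatives were the deposited table, normexp background correction, quantile and median scaling, no filter and a filter on all 8 arrays, the mean of a gene's probes, fits within an agent or a week, a factor alone, matched combinations as a block, each array left out, and, chosen after seeing the data, no TAA 1-week pair.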

Additional observations from a re-analysis of the deposited data

Results flagged for a closer look

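In 3 genes both pairs of one group lay on one side of 0 and both pairs of the other group on the other side. The interaction terms that test these differences missed the threshold in limma in each case.

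For Me1, miR-29a minus NC was -0.25 at 2 weeks (pairs of -0.42 in TAA and -0.08 in CCl4), against 0.65 at 1 week (1.29 in TAA and 0.02 in CCl4). The oligonucleotide by week term was -0.90 ± 0.47 (limma adjusted p = 1.00), and the larger of the 1-week pairs holds the TAA 1-week NC array, where Me1 was lowest.

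For Srebf1, 2 weeks minus 1 week was -0.74 in TAA (-1.12 with miR-29a and -0.36 with NC), against 0.18 in CCl4 (0.28 with miR-29a and 0.07 with NC). The agent by week term was -0.92 ± 0.49 (limma adjusted p = 0.272).

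For Mlxipl, miR-29a minus NC was 0.95 in TAA (0.30 at 2 weeks and 1.61 at 1 week), against -0.095 in CCl4 (-0.06 and -0.13). The same 8 arrays give TAA minus CCl4 as 0.84 with miR-29a (0.11 and 1.56), against -0.21 with NC (-0.25 and -0.18). The oligonucleotide by agent term was 1.05 ± 0.57 (limma adjusted p = 1.00), and the second Mlxipl probe, well above background on all 8 arrays, did not show either pattern. Its miR-29a minus NC difference was -0.04 in TAA 2 weeks, 0.50 in TAA 1 week, -0.17 in CCl4 2 weeks and 0.28 in CCl4 1 week. In the 1-week NC pair its TAA minus CCl4 difference was 1.20, against -0.18 on the probe used.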

How the results depend on the processing

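Over 22 alternatives the miR-29a minus NC difference kept its sign for Srebf1 (0.36 to 1.28), Thrsp (0.59 to 1.41) and Fasn (0.26 to 0.90), with adjusted p-values from limma between 0.542 and 1.00. Of the 872 member values under the alternatives, 2 passed an adjusted p of 0.05 (counts over all features follow in the next paragraph). These were Acly for TAA minus CCl4 with arrays scaled to their medians (-0.67, limma adjusted p = 0.0449), and Mlxipl for the agent by week term without the TAA 1-week NC array. With median scaling the median of all features was -0.52, and Acly was at -0.15 relative to it. The other Acly probe, well above background on 8 arrays, gave 0.64 with the 75th percentile as the scale. The Mlxipl fit left 1 array in TAA 1 week. The replicate numbers, all 1, pair no arrays, so the paired fit took the matched combinations as its block. In that fit 0 features were called by limma for TAA minus CCl4, for 2 weeks minus 1 week and for miR-29a minus NC. The slide could not be used as a block, since all arrays lay on 1 slide.

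For TAA minus CCl4, 0 of 18534 features were called with the reported settings, 6 after normexp and 11 after quantile normalization. With median scaling 5489 were called, 1 of them a member, Acly. With the filter on all 8 arrays 6 were called, with agent alone 18 and within 1 week 2557. For 2 weeks minus 1 week, 505 were called without the TAA 1-week pair, against 0. For the agent by week term the 1819 called became 3418 after normexp, 3439 with median scaling and 0 without a filter; leaving out each array gave 0 to 2381 features (0 without any 1 of the 6 arrays other than TAA 1 week) and 0 to 1 members. Apart from the number of features and arrays that a setting keeps, the cause was not tested.

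Member values near 0 changed sign as follows. With median scaling, TAA minus CCl4 was -0.24 for Fasn, -0.018 for Srebf1, -0.079 for Mlxipl and -0.10 for Thrsp, the agent by week term was 0.18 for Fasn, 0.34 for Acaca, 0.064 for Acly and 0.21 for Me1, and miR-29a minus NC was -0.0082 for Acly. With the mean of probes, TAA minus CCl4 was 0.18 for Acly and the agent by week term 0.30 for Acaca. After normexp, 2 weeks minus 1 week was 0.037 and miR-29a minus NC -0.0025 for Acly, and the agent by week term 0.049 for Acaca. After quantile normalization, TAA minus CCl4 was 0.15 for Acaca, 0.026 for Acly and 0.079 for Me1, and miR-29a minus NC -0.0054 for Acly. Within CCl4, miR-29a minus NC was -0.14 for Acaca, 0.018 for Scd1, -0.092 for Acly, -0.095 for Mlxipl and -0.030 for Me1, and 2 weeks minus 1 week 0.062 for Fasn, 0.18 for Srebf1, -0.060 for Scd1 and 0.15 for Acly. Within 1 week, miR-29a minus NC was -0.27 for Acly. Within 2 weeks, TAA minus CCl4 was -0.066 for Mlxipl, -0.086 for Srebf1 and -0.030 for Thrsp, and miR-29a minus NC -0.25 for Me1 and -0.033 for Acaca. Without the TAA 1-week pair, TAA minus CCl4 was -0.066 for Mlxipl, -0.086 for Srebf1 and -0.030 for Thrsp, miR-29a minus NC -0.10 for Acaca and -0.16 for Me1, 2 weeks minus 1 week 0.18 for Srebf1, -0.060 for Scd1, 0.15 for Acly and 0.062 for Fasn, the oligonucleotide by week term 0.24 for Mlxipl, 0.20 for Acaca, -0.29 for Scd1 and 0.43 for Srebf1, and the oligonucleotide by agent term -0.39 for Me1.

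Leaving out each array in turn, TAA minus CCl4 ranged from -0.12 to 0.35 for Fasn, -0.50 to 0.045 for Me1, -0.078 to 0.53 for Mlxipl and -0.074 to 0.50 for Thrsp. For 2 weeks minus 1 week the range was -0.32 to 0.15 for Fasn, -0.23 to 0.094 for Acly and -0.54 to 0.043 for Srebf1. For miR-29a minus NC it was -0.069 to 0.14 for Acaca, -0.10 to 0.24 for Acly and -0.095 to 0.38 for Me1. The agent by week term ranged from -0.85 to 0.39 for Fasn, -0.38 to 0.25 for Acaca, -0.78 to 0.088 for Acly, -0.92 to 0.53 for Me1, -1.54 to 0.030 for Mlxipl and -1.41 to 0.12 for Thrsp. The oligonucleotide by agent term ranged from -0.21 to 0.72 for Acly and -0.17 to 1.095 for Me1, and the oligonucleotide by week term from -0.014 to 1.04 for Fasn, -0.46 to 0.096 for Acaca, -0.32 to 0.84 for Scd1, -1.04 to 0.50 for Srebf1, -1.46 to 0.20 for Mlxipl and -0.058 to 1.44 for Thrsp.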
